A study of Mus musculus with 16 samples.

Results

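The comparison set 8 crushed mouse retinas carrying a virus for a form of HDAC5 against 3 crushed retinas carrying a virus for GFP, and asked what the HDAC5 forms shared after optic nerve injury. The HDAC5 group was formed from all 4 HDAC5AA and all 4 HDAC5DAD libraries of the series, and the control group from GFP replicates 2, 3 and 4, so that 11 of the 15 libraries analysed took part. GFP replicate 1 was not analysed here. All 11 retinas came from C57BL/6 mice of around 6 weeks. Each eye had been injected intravitreally with an adeno-associated virus of serotype AAV2. The optic nerve was crushed 2 weeks later for 3 seconds at around 1 mm from the optic disc, and the retina was taken 4 days after the crush. The controls therefore shared the virus type and the injury, and differed in the gene carried. The labels do not say which changes the letters AA and DAD mark, which promoter drove the transgenes, or what share of cells took up virus. The series aimed the virus at retinal ganglion cells, the neurons whose axons form the optic nerve, while the RNA was that of the whole retina. A further 4 libraries of uninjured retina, for which no virus is named, entered the joint scaling and are quoted only as levels.

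HDAC5 is a class IIa histone deacetylase. Proteins of this class have weak deacetylase activity of their own, bind MEF2 transcription factors and bring corepressor complexes with HDAC3 to their target genes. Phosphorylation moves them from the nucleus to the cytoplasm, and in injured sensory neurons HDAC5 is known for leaving the nucleus after axotomy. Whole retina is mostly rod photoreceptors, so that a gene confined to ganglion cells is diluted in these libraries, and fewer cells of a type cannot be told apart from less RNA per cell.

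The shallowest crushed library, HDAC5AA replicate 4, held 10939457 recovered reads and the deepest, HDAC5DAD replicate 2, held 25930791. Total reads did not separate the groups (17401942 to 23274513 in GFP, two-sided exact permutation p = 0.885). Markers of cones (Arr3, 3095 to 4777 normalized reads), Mueller glia (Glul, 32492 to 43017) and ganglion cells (Sncg, 389 to 638) were read in all 11 libraries. Reads on features that hold ribosomal RNA sequence took 1.68% to 2.80% of the GFP libraries and 0.163% to 10.97% of the HDAC5 libraries (exact permutation p = 0.8). At a line of 1%, all 3 GFP libraries fell in a high class, as did HDAC5AA replicates 3 and 4 and HDAC5DAD replicates 1 and 4, while the other 4 HDAC5 libraries fell in a low class. The comparison was therefore repeated with the 4 high-class HDAC5 libraries against the same 3 GFP libraries. The labels do not say that replicates are separate animals, and p-values measure the spread between libraries, which may be technical.

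Hdac5 itself (ENSMUSG00000008855, chr11:102194432-102230166 on the minus strand of mm10) was read at 6566, 6613 and 6673 normalized reads in GFP replicates 2, 3 and 4. In the 8 HDAC5 libraries it lay between 6694 and 8634 with a median of 7804. The 8 HDAC5 libraries were all above the 3 GFP libraries, though the lowest, HDAC5AA replicate 4, stood only just above the highest GFP library. Under TMM scaling, and under scaling by total reads without ribosomal RNA, 7 of the 8 were above all GFP libraries. The means were 7843 ± 661 (SD, n = 8) and 6617 ± 53.8 (SD, n = 3), and the difference of 1226 gave a two-sided exact permutation p of 0.0121, the smallest that 8 libraries against 3 allow. Uninjured retina held 6836 ± 166 (SD, n = 4). In the limma fit over all genes the log2 fold change of Hdac5 was 0.24 (SE 0.06, adjusted p = 0.489), so that the targeted gene itself did not pass the adjusted threshold. Against the same 3 GFP libraries, HDAC5AA alone averaged 7669 ± 763 and HDAC5DAD alone 8017 ± 598 (SD, n = 4 each). Each gave an exact permutation p of 0.0571, the smallest that 4 libraries against 3 allow. Virus transcripts and the mouse gene cannot be told apart in these reads if the virus sequence matches the mouse gene, and the size of the difference is not a measure of HDAC5 protein.

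**Figure D1:**
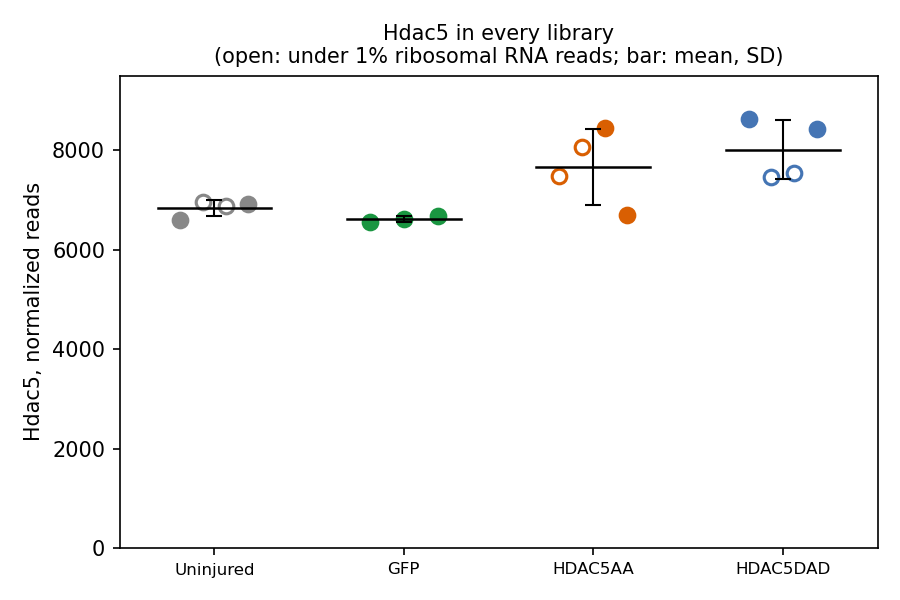
Normalized reads of Hdac5 (vertical axis, from 0) in each library of the 4 groups, with the mean as a horizontal bar and the SD as an error bar; open circles are libraries with under 1% ribosomal RNA reads. The 3 GFP libraries sit between 6566 and 6673, and the 8 HDAC5 libraries between 6694 and 8634.

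Across the transcriptome no single gene separated HDAC5 from GFP at an adjusted p under 0.05. Of 19494 genes tested with limma, 0 were higher (0%) and 0 lower (0%), and the smallest adjusted p was 0.0576, that of the interferon-inducible GTPase Ifi47. At an unadjusted p under 0.05, 966 genes were higher (4.96%) and 745 lower (3.82%), or 8.78% of all genes in either direction. The 8 HDAC5 libraries did not overlap the 3 GFP libraries for 242 genes on the higher side (1.24%) and 208 on the lower side (1.07%), or 2.31% in all. The median log2 fold change over all genes was 0.00, and a median gene had a 95% interval reaching 0.21 to either side, or 0.14 among the 11879 genes with a mean of at least 100 normalized reads. A log2 difference of 1 or more was measured for 73 genes, of which 42 were at an unadjusted p under 0.05.

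The other count tests placed few or no genes past the threshold. edgeR's quasi-likelihood test on the recovered reads called 0 of 18208 genes, with a smallest adjusted p of 0.120. At an unadjusted p under 0.05 it placed 4.67% of genes higher and 5.22% lower, 9.89% or 1801 genes in all. DESeq2 called 9 genes higher (0.0512%) and 3 lower (0.0171%) of the 17593 genes to which it gave an adjusted p. At an unadjusted p under 0.05 it placed 4.68% higher and 3.51% lower, 8.19% in all. The higher genes were Ighg1, Ifi47, Dkk3, Ecel1, Psmb9, Sult4a1, Xdh, Cabp5 and Ccnd1, and the lower genes were Ttn, Fyco1 and the transcript Gm42716. Within the high ribosomal RNA class limma called 0 genes, and the number at an unadjusted p under 0.05 was 1016 (5.21%, of which 2.65% higher and 2.56% lower), fewer than the 1711 of the comparison with all 8 HDAC5 libraries. With all 8 HDAC5 libraries but without GFP replicate 3, limma placed 947 genes (4.86%) at an unadjusted p under 0.05. The share was 8.78% with all 3 GFP libraries.

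Ifi47, the gene nearest the threshold, is inducible by interferon, as are Tgtp2, Gbp5 and Psmb9 among the 24 genes named by rule. That rule, given below, took only genes without overlap between the HDAC5 and GFP libraries. The absence of overlap described for each named gene is therefore no separate evidence. Interferons act through transcription factors that bind the sequence elements called GAS and ISRE. Among their best known targets are immunity-related and guanylate-binding GTPases, immunoproteasome subunits and antigen-presenting molecules. The promoters of the 3 GTPase genes among the named genes, Ifi47, Tgtp2 and Gbp5, are printed here to show where letters of these elements occur in them, and they were chosen after their values were seen. Each runs from 250 bases before to 50 bases after the RefSeq start (GRCm38.p6), 5′ to 3′ on the strand of the gene, at chr11:49076337-49076636 (plus strand) for Ifi47, chr11:49064163-49064462 (minus strand) for Tgtp2 and chr3:142496684-142496983 (plus strand) for Gbp5. Capitals mark matches, searched on both strands, to the ISRE core (GAAA, any 2 bases, GAAA) or the GAS core (TTC, any 3 bases, GAA).
Ifi47: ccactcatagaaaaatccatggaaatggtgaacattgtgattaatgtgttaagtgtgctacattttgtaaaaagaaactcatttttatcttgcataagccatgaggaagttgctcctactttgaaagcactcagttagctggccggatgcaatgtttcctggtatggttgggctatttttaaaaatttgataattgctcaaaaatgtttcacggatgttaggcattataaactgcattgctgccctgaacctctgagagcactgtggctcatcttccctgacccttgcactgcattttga
Tgtp2: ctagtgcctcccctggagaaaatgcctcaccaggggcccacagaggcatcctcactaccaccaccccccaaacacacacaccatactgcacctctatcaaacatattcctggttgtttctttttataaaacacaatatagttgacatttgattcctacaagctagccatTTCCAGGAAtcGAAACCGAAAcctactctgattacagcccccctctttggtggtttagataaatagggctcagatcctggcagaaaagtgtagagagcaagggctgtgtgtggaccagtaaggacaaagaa
Gbp5: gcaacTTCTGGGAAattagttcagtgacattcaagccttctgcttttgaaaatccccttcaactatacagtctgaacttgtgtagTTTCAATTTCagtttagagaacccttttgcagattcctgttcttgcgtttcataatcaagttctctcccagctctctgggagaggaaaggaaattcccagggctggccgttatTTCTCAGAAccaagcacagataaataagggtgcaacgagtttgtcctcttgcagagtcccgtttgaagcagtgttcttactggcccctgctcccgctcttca
The Tgtp2 promoter held 1 ISRE core and 1 GAS core, 2 bases apart, and the Gbp5 promoter held 1 ISRE core and 2 GAS cores. In the windows of Ifi47 and of Psmb9, whose promoter is not printed, the letters of neither core occurred. The Gbp5 and Psmb9 windows lie inside the GENCODE bounds of these genes (chr3:142493978-142522344 and chr17:34181987-34187764). Sequence before the GENCODE starts of both genes was not searched. Of 12683 promoters of tested genes, 2.88% held the ISRE core and 6.69% the GAS core. A match describes the letters and not a binding site.

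Ifi47 (ENSMUSG00000078920, chr11:49076587-49096974) encodes an interferon-gamma-inducible GTPase. It was read at 39.7, 49.9 and 39.9 normalized reads in the GFP libraries and at 69.8 to 114 with a median of 82.3 in the HDAC5 libraries. Every HDAC5 library lay above every GFP library, and uninjured retina lay far below both (6.27 ± 1.23, SD, n = 4). The log2 fold change was 0.96 (SE 0.15), with an adjusted p of 0.0576 in limma, 0.00117 in DESeq2 and no call in edgeR. Within the high ribosomal RNA class it was 0.85. Both forms lay at a similar distance from GFP, at 0.94 (SE 0.18) for HDAC5AA and 0.97 (SE 0.17) for HDAC5DAD, comparisons that share the GFP libraries. The direct difference, HDAC5AA minus HDAC5DAD, was -0.03 (SE 0.16, limma adjusted p = 0.991).

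Tgtp2, a T-cell-specific GTPase of the same family, had 13.2, 15.9 and 19.4 normalized reads in GFP and 24.7 to 61.6 with a median of 37.5 in HDAC5. The groups did not overlap, and HDAC5AA replicate 2 was the highest library. Its log2 fold change was 1.12 (SE 0.24, limma adjusted p = 0.284). Tgtp2 has a near-identical neighbour, Tgtp1, which is not among the genes joined here, and reads may be shared between the copies. Gbp5, a guanylate-binding protein that promotes inflammasome assembly, had 61.3, 81.8 and 65.7 in GFP and 89.7 to 129 with a median of 101 in HDAC5. Here too the groups were apart, by a log2 fold change of 0.60 (SE 0.13, limma adjusted p = 0.344). Psmb9, a catalytic subunit of the immunoproteasome, was at 62.9, 97.7 and 72.2 in GFP and at 107 to 215 with a median of 126 in HDAC5. Its log2 fold change was 0.87 (SE 0.21, limma adjusted p = 0.489, DESeq2 adjusted p = 0.0219). Il4ra, the receptor chain for interleukin 4, was at 238 to 253 in GFP and at 275 to 351 in HDAC5, a log2 fold change of 0.31 (SE 0.08, limma adjusted p = 0.489).

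The wider interferon genes lay above GFP too, with more overlap between the groups. A list of 22 interferon-inducible GTPases was put together after values were seen and is a description only: of 15 that were tested, 14 were higher at an unadjusted p under 0.05, beside 4.96% of all genes, and the median log2 fold change was 0.79. All 8 HDAC5 libraries lay above all 3 GFP libraries for 7 of the 15, beside 1.24% of all genes. Within the high ribosomal RNA class 11 were higher at an unadjusted p under 0.05, beside 2.65% of all genes, and the median was 0.66. Iigp1 had a mean of 93.1 ± 9.94 (SD, n = 3) normalized reads in GFP and 191 ± 59.5 (SD, n = 8) in HDAC5 (log2 fold change 0.97, SE 0.26, limma adjusted p = 0.489). Of the 47 tested genes in the interferon response list, 15 were higher at an unadjusted p under 0.05 and 0 lower, and the median was 0.25. Against the same GFP libraries that median was 0.07 for HDAC5AA alone and 0.41 for HDAC5DAD alone. The median of HDAC5AA minus HDAC5DAD was -0.31. In that comparison 12 of the 47 were at an unadjusted p under 0.05, beside 6.34% of all genes. Of the 23 genes of MHC class I presentation, which display peptides to CD8 T cells, 11 were higher and 0 lower, and the median was 0.44. Within the high class the medians of the interferon response and class I lists were 0.15 and 0.30. H2-M3, a nonclassical class I molecule, was at 37.3 ± 8.71 in GFP and 58.7 ± 12.7 in HDAC5, and Nlrc5, the class I transactivator, at 153 ± 36.4 and 258 ± 67.7 (SD, n = 3 and 8). The libraries of the groups overlapped for both genes.

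**Figure D2:**
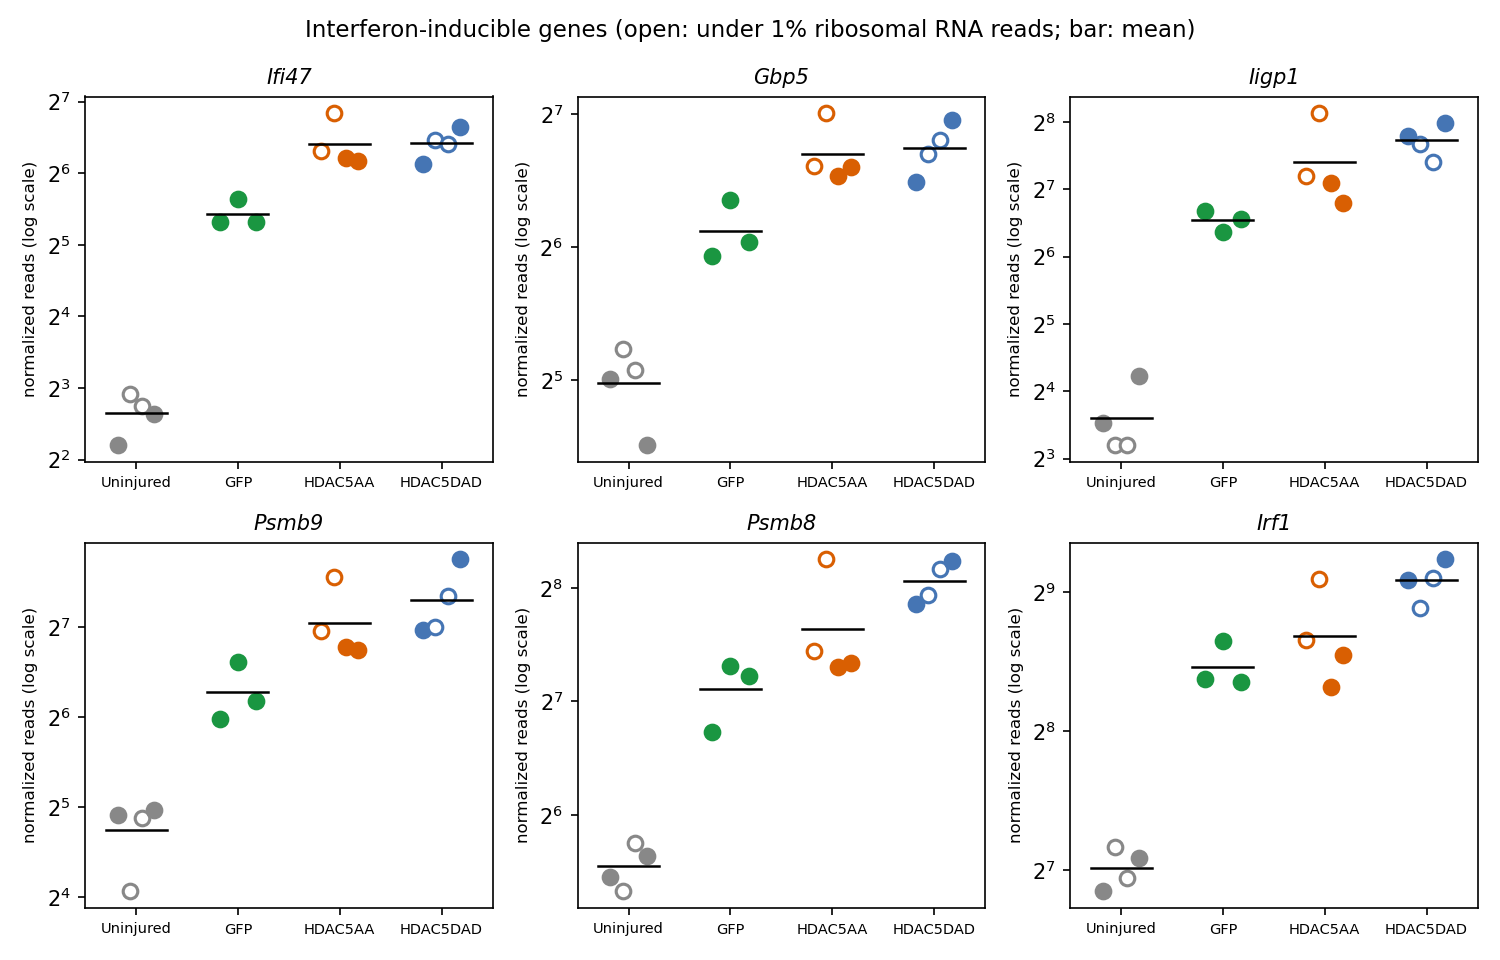
Normalized reads (log axis) of 6 interferon-inducible genes in each library of the 4 groups; horizontal bars are means and open circles are libraries with under 1% ribosomal RNA reads. For Ifi47, Gbp5, Iigp1 and Psmb9 the 8 HDAC5 libraries lie above the 3 GFP libraries, whereas for Psmb8 and Irf1 at least 1 HDAC5AA library lies below the highest GFP library.

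Markers of immune cells lay above GFP at the median of the pooled comparison as well, and their part in the interferon values was not tested. The 22 microglia markers had a median log2 fold change of 0.20. At an unadjusted p under 0.05, 2 were higher and 0 lower, beside 4.96% and 3.82% of all genes. The summed level of the 22 markers was 4146 to 5668 normalized reads in GFP and 4643 to 7909 in HDAC5, ranges that overlap. Of the 34 markers of activated microglia and myeloid cells 29 were tested, with a median of 0.24 and summed levels of 2270 to 3843 in GFP and 2539 to 4139 in HDAC5. Their median was 0.46 without GFP replicate 3, 0.15 for HDAC5AA alone and 0.45 for HDAC5DAD alone. Of 24 lymphocyte markers only 9 were among the joined genes, and the T cell genes Cd3e, Cd3d, Cd8a and Trac were not. None of the 9 was at an unadjusted p under 0.05. Their median log2 fold change was 0.40, at 0.02 for HDAC5AA alone and 0.64 for HDAC5DAD alone. The summed level of these 9 was 530 to 844 in GFP and 583 to 2008 in HDAC5, with HDAC5DAD replicate 3 and HDAC5DAD replicate 4 at the top by mean log2 level (6.51 and 6.02, against a GFP range of 4.49 to 5.36). MHC class II presentation, which dendritic cells, macrophages and B cells carry, had the highest median of the lists (0.94 over 7 of 10 genes), yet 0 genes were at an unadjusted p under 0.05. Its mean log2 level spanned 6.18 to 7.64 in GFP and 6.59 to 8.59 in HDAC5. GFP replicate 2 set the low end of that range, and without it the median was 0.27.

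Ighg1, the constant gene of immunoglobulin G1 heavy chains, had the largest fold change of all named genes. It was at 1.66, 4.25 and 32.3 normalized reads in the GFP libraries and at 52.5 to 1316 with a median of 467 in the HDAC5 libraries. Every HDAC5 library was above every GFP library, although both groups spread by more than 10-fold. The log2 fold change was 5.72 (SE 1.07), with an adjusted p of 0.489 in limma and 0.000187 in DESeq2. HDAC5AA minus HDAC5DAD was -1.74 (SE 0.89, limma adjusted p = 0.834). Other immunoglobulin constant genes overlapped between the groups: Igha was at 573 ± 233 in GFP and 1112 ± 912 in HDAC5, and Igkc at 1199 ± 402 and 1774 ± 1338 (SD, n = 3 and 8). Immunoglobulin G constant genes resemble each other, and how reads were split among them is uncertain. The 7 tested constant genes had a median log2 fold change of 0.32, at 0.02 for HDAC5AA alone and 0.67 for HDAC5DAD alone. Uninjured retina held 1.15 ± 1.03 (SD, n = 4) normalized reads of Ighg1.

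**Figure D3:**
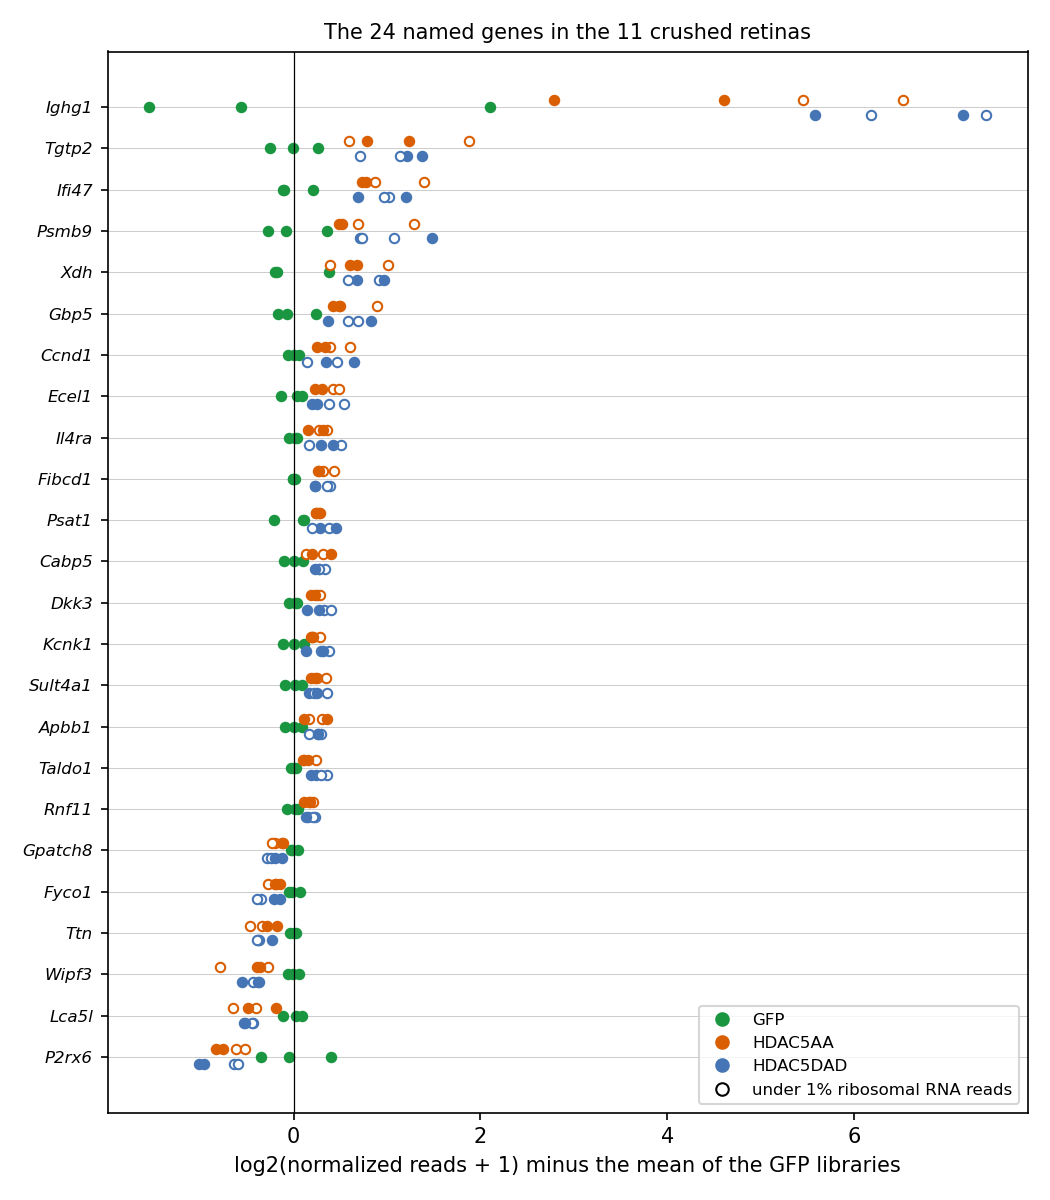
The 24 named genes besides Hdac5 in the 11 crushed retinas, as log2(normalized reads + 1) minus the mean of the 3 GFP libraries (horizontal axis); open circles are libraries with under 1% ribosomal RNA reads. All 24 were chosen for showing no overlap between the groups, and Ighg1, with a log2 fold change of 5.72, reaches farthest.

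Besides Hdac5, 24 genes were named by rule: of the 306 genes with a usual symbol, a mean of at least 20 normalized reads and no overlap between the groups, those with the smallest unadjusted p. None passed the limma adjustment, 18 were above GFP and 6 below, and adjusted p-values ran from 0.0576 to 0.489. The absence of overlap was the condition of choice and is no separate evidence. Within the high ribosomal RNA class the log2 fold change was smaller in size for 18 of the 24. For HDAC5AA against HDAC5DAD only Taldo1 had an unadjusted limma p under 0.05 (0.0402), beside 6.34% of all genes. The smallest limma adjusted p among the 24 was 0.771. The choice by smallest pooled p favoured genes with little spread among the HDAC5 libraries. This count therefore does not show that the forms are alike.

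Several neuronal and glial genes were slightly above GFP. Dkk3, a secreted member of the Dickkopf family made by Mueller glia, was among the most abundant: 15907, 15177 and 16188 normalized reads in GFP against 17394 to 20828 with a median of 18882 in HDAC5. The lowest HDAC5 library, HDAC5DAD replicate 1, was above the highest GFP library. The log2 fold change was 0.26 (SE 0.05, limma adjusted p = 0.259), with a DESeq2 adjusted p of 0.00213. Ecel1, a membrane protease that damaged neurons induce, was at 1513, 1292 and 1454 in GFP and 1623 to 2059 with a median of 1796 in HDAC5. Uninjured retina held 12.7 ± 2.68 (SD, n = 4), far below both crushed groups. The log2 fold change of HDAC5 over GFP was 0.35 (SE 0.07, limma adjusted p = 0.259). For Ecel1 the difference between high-class and low-class HDAC5 libraries was -0.21 (SE 0.05, limma adjusted p = 0.207), and within the high class the difference from GFP was 0.24. For Dkk3 the class difference was -0.11 (limma adjusted p = 0.4), and its difference from GFP within the high class was 0.21.

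Ccnd1, cyclin D1 of the cell cycle, was at 434, 401 and 419 in GFP and at 461 to 653 with a median of 539 in HDAC5. Its groups were apart by a log2 fold change of 0.40 (SE 0.09, limma adjusted p = 0.284), and by 0.39 within the high class. Sult4a1, a sulfotransferase-like protein of neurons, was at 1419, 1249 and 1345 in GFP and 1502 to 1706 in HDAC5, a log2 fold change of 0.25 (SE 0.05). Cabp5, a calcium-binding protein of bipolar cells, was at 1119, 1037 and 1191 in GFP and 1217 to 1475 in HDAC5, a log2 fold change of 0.27 (SE 0.06). Apbb1, an adaptor of the amyloid precursor protein, Kcnk1, a potassium leak channel, and Rnf11, a RING-domain ubiquitin ligase, had log2 fold changes of 0.24 (SE 0.05), 0.25 (SE 0.06) and 0.17 (SE 0.05). Fibcd1, an acetyl-group-binding receptor, had 219, 219 and 223 normalized reads in GFP and 258 to 298 in HDAC5 (0.31, SE 0.08).

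Genes of metabolism stood among them as well. Xdh, which oxidises hypoxanthine and xanthine to urate, was at 55.5, 56.3 and 83.0 in GFP and at 84.1 to 129 with a median of 102 in HDAC5. GFP replicate 4 came within about 1 normalized read of the lowest HDAC5 library. The log2 fold change was 0.73 (SE 0.15, limma adjusted p = 0.259, DESeq2 adjusted p = 0.0357) and was 0.73 within the high class too. Psat1, an enzyme of serine synthesis, was at 921, 743 and 928 in GFP and 983 to 1180.2 in HDAC5 (log2 fold change 0.29, SE 0.07), and 0.19 without GFP replicate 3, the lowest library. Taldo1, transaldolase of the pentose phosphate pathway, was at 1708, 1745 and 1778 in GFP and 1876 to 2242 in HDAC5 (0.21, SE 0.05). A list of 20 glycolysis and lactate genes was put together after values were seen and is a description only. Its median was 0.16, with 14 members higher at an unadjusted p under 0.05, beside 4.96% of all genes. Within the high class 7 were higher, beside 2.65% of all genes. Ldha, lactate dehydrogenase, was at 12614 ± 449 in GFP and 14355 ± 659 in HDAC5 (SD, n = 3 and 8; log2 fold change 0.19, limma adjusted p = 0.489), and both were below the 15471 ± 1256 (SD, n = 4) of uninjured retina.

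The 6 named genes below GFP have diverse roles. Ttn encodes titin, the giant spring protein of muscle sarcomeres, and was at 551, 537 and 561 normalized reads in GFP and 397 to 484 with a median of 429 in HDAC5. The groups were apart, and the log2 fold change was -0.33 (SE 0.07, limma adjusted p = 0.259, DESeq2 adjusted p = 0.00592). Fyco1, which links autophagosomes to kinesin, was at 7303, 7767 and 7184 in GFP and 5669 to 6708 with a median of 6434 in HDAC5. Its log2 fold change was -0.24 (SE 0.05, limma adjusted p = 0.344), and -0.17 within the high class. The class difference among HDAC5 libraries, high minus low, was 0.13 (limma adjusted p = 0.313). Wipf3, a partner of WASP proteins in actin assembly, was at 166, 173 and 159 in GFP and 96.0 to 137 in HDAC5 (-0.44, SE 0.11). Lca5l, a homologue of the ciliary protein lebercilin, was at 103, 120.0 and 114 in GFP and 71.3 to 98.7 in HDAC5 (-0.46, SE 0.12). P2rx6, a subunit of ATP-gated channels, was at 33.1, 56.3 and 40.9 in GFP and 20.5 to 29.2 in HDAC5 (-0.74, SE 0.19), or -0.54 without GFP replicate 3. Gpatch8, a G-patch domain protein, had a log2 fold change of -0.19 (SE 0.05).

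Pathways that the study's question concerns lay near the median of all genes. The counts of list members that follow are to be read beside the 4.96% of all genes higher and 3.82% lower at an unadjusted p under 0.05. Among class IIa HDACs and MEF2 factors, 7 of 8 genes were tested and the median log2 fold change was -0.01. Besides Hdac5, Hdac4 was at 1191 ± 109.9 in GFP and 1284 ± 60.8 in HDAC5, Hdac9 at 2001 ± 59.3 and 1839 ± 156, and Mef2d at 4188 ± 448 and 3759 ± 342 (SD, n = 3 and 8). These 3 genes had unadjusted limma p-values of 0.0698, 0.0597 and 0.0586. Of 24 other histone deacetylases and corepressors 4 were higher and 1 lower at an unadjusted p under 0.05, and the median was 0.04. Tbl1xr1, a corepressor subunit that binds HDAC3 complexes, was at 1048 ± 47.6 in GFP and 1218 ± 78.9 in HDAC5 (log2 fold change 0.22, SE 0.06, limma adjusted p = 0.489). Of 32 mTOR pathway genes 1, the arginine sensor Castor1, was higher at an unadjusted p under 0.05 and 0 were lower, and the median was 0.02. Of 27 immediate early and activity genes 1, Homer1, was higher and 0 were lower, and the median was 0.07.

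Axon growth genes lay slightly above GFP at the median. Of 41 regeneration and axon growth genes 40 were tested. At an unadjusted p under 0.05, 4 were higher and 0 lower (4.96% and 3.82% of all genes). The median log2 fold change was 0.07, or 0.01 within the high class. The 8 HDAC5 libraries lay above all GFP libraries for 2 of the 40 and below for 0 (1.24% and 1.07% of all genes). Within the high class 6 were at an unadjusted p under 0.05 (5.21% of all genes), 3 of them higher (2.65% of all genes). Sprr1a, a small proline-rich protein induced in regenerating neurons, was at 86.0 ± 11.3 in GFP and 122 ± 19.9 in HDAC5 (SD, n = 3 and 8; log2 fold change 0.49, SE 0.14, limma adjusted p = 0.489), and the libraries overlapped. Lgals1, galectin 1, was at 278 ± 12.1 and 337 ± 30.3 (0.27, SE 0.08), and Sox11, a transcription factor of developing neurons, at 811 ± 91.8 and 910.5 ± 53.2 (0.17, SE 0.07). Of 38 ganglion cell genes 4 were higher and 0 lower, with a median of 0.08. Nell2 was at 365 ± 24.6 in GFP and 414 ± 21.7 in HDAC5, and Sncg at 479 ± 78.5 and 551 ± 46.6 (SD, n = 3 and 8), against 908 ± 47.4 and 1614 ± 118 (SD, n = 4) in uninjured retina. Without GFP replicate 3 the ganglion cell median was 0.03 and the log2 fold change of Sncg moved from 0.21 to 0.07. Of 29 integrated stress response genes tested, 3 were higher and 2 lower (median 0.03), and of 22 cell death and p53 genes 0 were at an unadjusted p under 0.05.

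Lists of most retinal cell types had medians near 0, and those of tissue outside the neural retina moved with single GFP libraries. Median log2 fold changes were 0.03 for 22 rod genes, 0.07 for 14 cone genes, 0.09 for 19 bipolar genes, 0.04 for 20 amacrine genes, 0.07 for 22 resting Mueller glia genes and 0.01 for 30 reactive Mueller glia genes. At an unadjusted p under 0.05, 4 rod, 4 cone, 3 bipolar, 1 amacrine and 3 resting Mueller glia genes were higher and 0 lower. Of 9 horizontal cell genes, with a median of 0.04, 3 were higher and 0 lower. Of the reactive Mueller glia genes 2 were higher and 1 lower. These counts are to be read beside 4.96% of all genes higher and 3.82% lower. The reactive Mueller glia median was -0.06 for HDAC5AA alone and 0.16 for HDAC5DAD alone, -0.10 within the high class and 0.14 without GFP replicate 3. For HDAC5AA minus HDAC5DAD it was -0.33, with 7 of 30 at an unadjusted p under 0.05, beside 6.34% of all genes. Of 61 oxidative phosphorylation genes 15 were higher at an unadjusted p under 0.05, beside 4.96% of all genes, and the median was 0.10. Within the high ribosomal RNA class, with 4 libraries against 3, 1 was higher, beside 2.65% of all genes, and the median was 0.06. Retinal pigment epithelium and melanin genes had a median of -0.60. At an unadjusted p under 0.05, 4 of 15 were lower, beside 3.82% of all genes. Pmel, a melanosome fibre protein, was at 68.7, 234 and 34.5 normalized reads in the 3 GFP libraries and 10.1 to 58.4 in the HDAC5 libraries, so that GFP replicate 3 stood far above the rest. Without it the list's median was -0.14 and 0 members were at an unadjusted p under 0.05, and without GFP replicate 2 the median was -1.23. Lens crystallin genes had a median of -0.27, but GFP replicate 2 was far above the others by mean log2 level (6.70, against 3.38 and 4.28), and without it the median was 0.70. The sign of the lens median thus turned on 1 GFP library. The pigment epithelium median stayed below 0 in these fits, but its size moved with single GFP libraries. No effect of HDAC5 is read from either list.

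**Figure D4:**
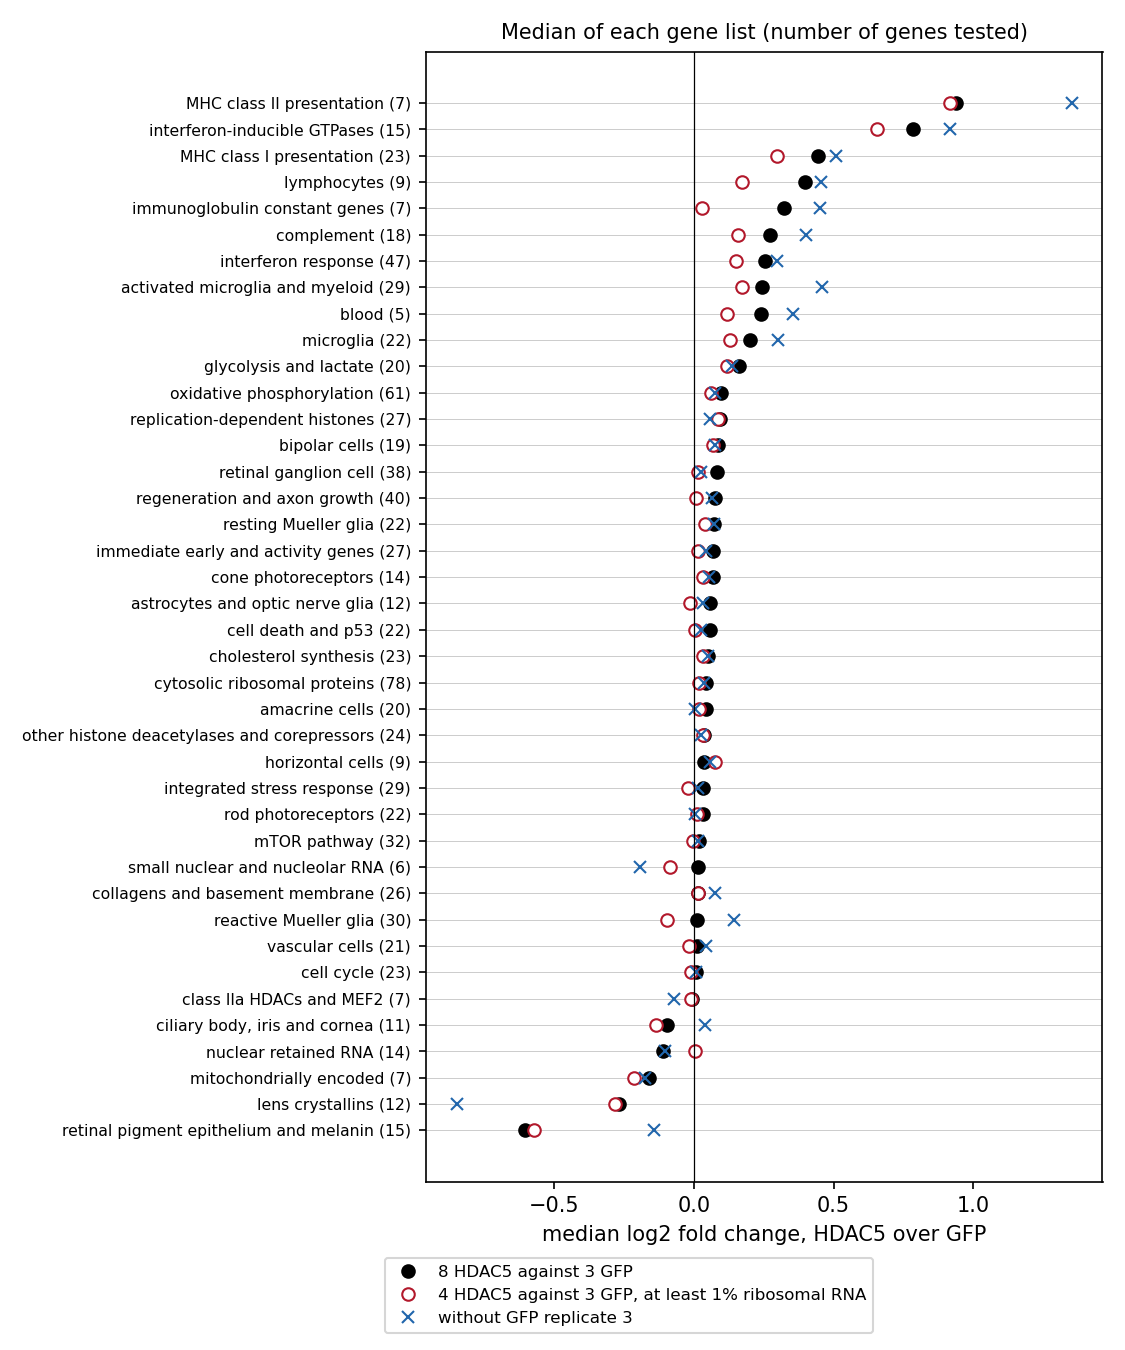
Median log2 fold change of HDAC5 over GFP for each gene list (horizontal axis), with the number of genes tested in brackets; filled circles use 8 HDAC5 libraries, open circles the 4 of the high ribosomal RNA class, and crosses leave out GFP replicate 3. MHC class II presentation is at 0.94 and the pigment epithelium at -0.60, the latter moving to -0.14 without GFP replicate 3.

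Non-coding gene types lay below GFP as classes. The median log2 fold change was 0.02 over 15006 protein-coding genes, of which 6.18% were higher and 2.30% lower at an unadjusted p under 0.05. It was -0.23 over 1153 TEC genes (loci that still await experimental evidence), of which 0.260% were higher and 15.2% lower. It was -0.25 over 128 sense-intronic transcripts, -0.16 over 953 antisense transcripts and -0.16 over processed pseudogenes. These types are also scarcer, with a median level of 21.4 normalized reads for TEC genes and 435 for protein-coding genes. Within the high ribosomal RNA class the TEC median was -0.15 and that of sense-intronic transcripts -0.13. Among HDAC5 libraries alone the high class exceeded the low class by medians of 0.15 and 0.19 for these types. The part of the ribosomal RNA class in the distance from GFP was not tested. Gm42716, a processed transcript, was at 263, 326 and 292 in GFP and 195 to 249 with a median of 215 in HDAC5 (log2 fold change -0.43, SE 0.09, limma adjusted p = 0.284, DESeq2 adjusted p = 0.0215). Gm43359, a TEC gene, was at 103, 111 and 113 in GFP and 54.5 to 95.4 in HDAC5 (-0.62, SE 0.15, limma adjusted p = 0.489). Overlapping sense and antisense genes cannot be told apart where counting did not use strand, and the sources used here do not state it.

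**Figure D5:**
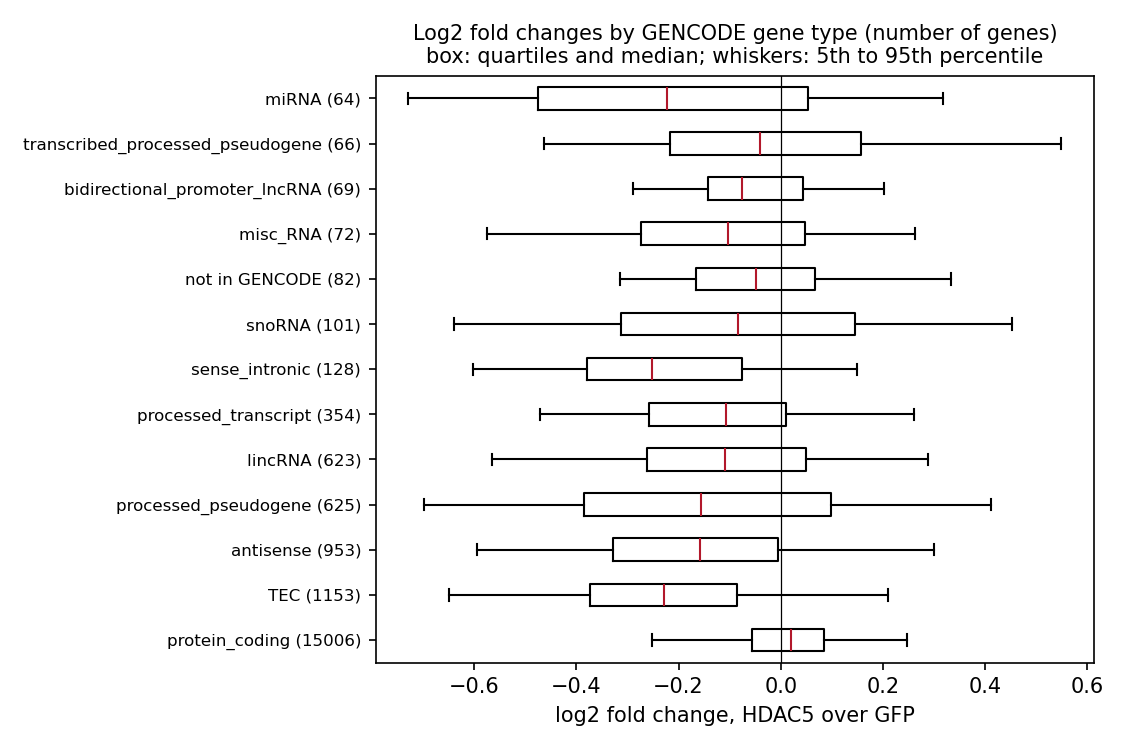
Log2 fold changes of HDAC5 over GFP (horizontal axis) by GENCODE gene type, with the number of genes in brackets; boxes are quartiles with the median in red and whiskers run from the 5th to the 95th percentile. Protein-coding genes centre at 0.02, and TEC and sense-intronic genes at -0.23 and -0.25.

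The forms were also compared with each other directly. Of 19494 genes, 0 were higher in HDAC5AA than in HDAC5DAD and 2 were lower (0.0103%) at an adjusted limma p under 0.05, and 3.52% were higher and 2.82% lower, 6.34% in all, at an unadjusted p under 0.05. Lin7b, a scaffold protein of synapses and epithelial junctions, was at 139 to 163 normalized reads in the 4 HDAC5AA libraries and 218 to 262 in the 4 HDAC5DAD libraries. The log2 difference was -0.67 (SE 0.10). The GFP libraries spread over both, at 142, 242 and 157, and pooled against GFP it was 0.08 (SE 0.24). Pcolce, an enhancer of procollagen processing, was at 292 to 403 in HDAC5AA and 527 to 658 in HDAC5DAD, a log2 difference of -0.84 (SE 0.09). Its GFP libraries were at 268, 634 and 425, which again span both forms.

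Each form was also set alone against the same GFP libraries, and the fits share those controls. For HDAC5DAD 10 genes were higher (0.0513%) and 1 lower (0.00513%). Those above GFP included Lsp1, Irf1, Psmb8, Vcam1, Gbp9, Gbp7, Irgm1, Iigp1 and Ifi47, and the gene below was Pla2r1. At an unadjusted p under 0.05 HDAC5DAD had 6.42% of genes higher and 5.41% lower, 11.8% in all. For HDAC5AA 0 were called, with 3.57% higher and 3.1% lower, 6.67% in all, at an unadjusted p under 0.05. Irf1, a transcription factor that interferon gamma induces, was at 332, 400.3 and 328 in GFP, 318 to 547 in HDAC5AA and 473 to 603 in HDAC5DAD. All 4 HDAC5DAD libraries were above GFP, while HDAC5AA straddled it. The log2 difference between the forms was -0.42 (SE 0.15, limma adjusted p = 0.704). None of these 11 genes passed the adjustment between the forms, so that a difference between HDAC5AA and HDAC5DAD is not shown for them.

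Ribosomal RNA class, tested among the 8 HDAC5 libraries with the form as a covariate, gave 0 higher and 0 lower genes at an adjusted limma p under 0.05, with 5.35% higher and 5.65% lower in the high class, 2144 genes or 11% in all, at an unadjusted p under 0.05. Of the 24 named genes 4 were among these, namely Ecel1, Dkk3, Fyco1 and Gpatch8. Ifi47, Tgtp2, Ccnd1 and Xdh had class differences of -0.22, 0.07, -0.01 and 0.01, with unadjusted p-values of 0.18, 0.789, 0.951 and 0.969.

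The authors' deposited table of genes particular to HDAC5AA names 57 genes, all of which were tested here. Pooled over both forms they had a median log2 fold change of -0.07. At an unadjusted limma p under 0.05, 3 were lower and 0 higher, beside 3.82% and 4.96% of all genes. The 3 were Gm17034, Pmel and Pitpnm2os1. The log2 fold change of Pmel was -1.68, and -0.94 without GFP replicate 3. The medians of the 57 genes were -0.13 for HDAC5AA alone and -0.01 for HDAC5DAD alone. That table was made from these same libraries and is not independent of them.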

How the data were processed

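RNA of whole retinas was measured by ribosomal-RNA-depleted sequencing with single reads of 50 nt, per the labels' protocols. Tools listed without versions per the submitters' processing notes are STAR, HTSeq and DESeq2, and the build is mm10. The deposited signal values are gene counts that the authors divided by 1 factor per library, in 3 tables that share the uninjured libraries. The authors' deposited tables also hold log2 fold changes and p-values against uninjured retina, which were not used here. Whether counting used strand is not given in the sources used here.

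Whole reads were recovered from the steps in each column: 100.0% of values came out whole within 0.01. The 19495 genes found in all 3 tables (of 19961, 19714 and 19956) were joined on gene ID and rescaled over 15 libraries by median of ratios. GENCODE vM21 gave types and coordinates for 19413 of them. Genes with a mean of at least 1 normalized read were tested with limma 3.58.1 (R 4.3.3) on log2(value + 1) with a trend and robust variance, and Benjamini-Hochberg adjusted p under 0.05 counted as a call. Fold changes are on that scale, which understates those of low genes. Alternatives used edgeR 4.0.16, DESeq2 1.42.0, other scalings, pseudocounts, filters, covariates and left-out libraries. The scripts were tested on simulated data.

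With no call, the 24 named genes were filled by smallest unadjusted p among genes with a mean of at least 20 normalized reads, no overlap between groups and no Gm, Rik, clone or immunoglobulin segment name. The constant gene Ighg1 was kept. From a list described, up to 4 members with the largest moderated statistic were named. The groups compared, the genes and the lists were chosen with earlier results of these data known. Promoter sequences are from RefSeq (GRCm38.p6). Same-numbered libraries of different groups had deviations that correlated between -0.196 and 0.235, so the numbers were not taken as pairs. Intervals and p-values do not cover steps before counting. Some genes are not reported here.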

Additional observations from a re-analysis of the deposited data

Results flagged for a closer look

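Of 81 groups of 4 libraries examined among the named genes, 2 held a library far from the other 3, where chance flags about 1 in 20 groups. Ttn had 468 normalized reads in HDAC5DAD replicate 4, away from the other HDAC5DAD libraries. Gbp5 had 129 normalized reads in HDAC5AA replicate 2, above the other HDAC5AA libraries. Between the HDAC5 forms, Lin7b (log2 difference -0.67) and Pcolce (log2 difference -0.84) were lower in HDAC5AA than in HDAC5DAD by limma's adjusted p, while the GFP libraries spanned both forms.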

How the results depend on the processing

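Of 31 alternatives, 27 left the count of genes above GFP at 0 and 29 the count below. DESeq2 called 9 higher and 3 lower, HDAC5DAD alone 10 and 1, and limma without the robust fit 1 higher (Ighg1). Leaving out 1 library gave 0 to 1 higher gene (Ifi47, without HDAC5DAD replicate 1). The number at an unadjusted p under 0.05 was 1016 within the high ribosomal RNA class, 998 with the class as a covariate, and 977 and 873 in the same fits with edgeR, which were added after the data were seen. As all GFP libraries were in the high class, both limma fits gave the same log2 fold changes and are not separate checks. With limma and 1 library left out the number at an unadjusted p under 0.05 ran from 947 (4.86%, without GFP replicate 3) to 2091 (without HDAC5DAD replicate 1), and HDAC5DAD alone gave 2307. The cause was not tested. With the replicate block it was 1836, and the counts of calls stayed at 0. The Hdac5 difference was 1432 within the high class, 1052 for HDAC5AA and 1399 for HDAC5DAD, each with the smallest p that 4 libraries against 3 allow (exact permutation p = 0.0571). It was 1166 under TMM scaling (exact permutation p = 0.0242) and 1095 by total reads without ribosomal RNA (exact permutation p = 0.0364).

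The class comparison within HDAC5 gave 2 higher genes with a pseudocount of 5. Leaving out 1 library gave 0 to 181 higher and 0 to 43 lower, both maxima without HDAC5AA replicate 1, and 1200 to 2807 at an unadjusted p under 0.05. HDAC5AA against HDAC5DAD gave 2 higher and 11 lower with the class as a covariate, 1 and 4 with the replicate block, and 0 to 14 higher and 1 to 11 lower with 1 library left out. Both maxima came without HDAC5AA replicate 1. These alternatives were chosen after the data were seen. For the named genes, 761 values under alternatives kept their direction and side of the threshold and 14 came to pass it. None had passed in the main fit, and genes chosen for no overlap keep their direction when libraries are left out. The unchanged values are therefore no separate evidence. Of the list medians, 616 stayed within the spread between libraries and 14 moved beyond it. With 3 GFP libraries, log2 differences under about 0.21 were within the interval of a median gene.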
